A study of Rattus norvegicus with 145 samples.

Results

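Cerebellum of heterozygous Q130 knock-in (KI) rats was compared with cerebellum of wild-type (WT) rats at 24 months of age, the oldest age in the series. The 11 libraries were those whose titles name cerebellum and 24 months, out of 145 in all, and each came from its own animal. KI animals carried 1 Q130 allele of the huntingtin gene beside a wild-type allele, with 3 females (KI F1 to F3) and 4 males (KI M1 to M4). WT animals carried no knock-in allele, with 2 females (WT F1 and F2) and 2 males (WT M1 and M2). All were Long Evans rats, and the labels name no treatment. The series sampled striatum, cortex and cerebellum of KI and WT rats at several ages by bulk RNA sequencing. The 11 libraries were set beside 3 other sets: 20 cerebellum libraries from other animals at 19 months (10 KI, 10 WT), and the cortex and striatum of the same 11 animals at 24 months.

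In Huntington's disease the CAG repeat of the huntingtin gene is expanded, which lengthens a glutamine tract in a protein made in cells throughout the brain. Projection neurons of the striatum are the cells best known for their loss, with the cortex also affected. The cerebellum, which coordinates movement, holds mostly small granule neurons together with Purkinje neurons, inhibitory interneurons and glia, and is usually described as less affected.

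Library totals, in units of 1000000 estimated counts, ran from 28.9 to 32.5 in KI and from 28.4 to 32.1 in WT. The mean Spearman correlation of a library with the other 10 ranged from 0.989 (KI M3) to 0.993. Gene profiles correlated at 0.992 to 0.996 with the mean WT cerebellum of 19 months, against 0.914 to 0.920 with cortex and 0.897 to 0.903 with striatum, so each library followed its labelled region. The levels of 2 female-biased and 5 male-biased genes placed every library with its labelled sex. The files give genes as Ensembl identifiers without symbols, and a table of rat gene symbols matched 0 of the 32883 identifiers. The huntingtin gene could not be picked out as a check of genotype, named cell type markers could not be read, and genes are described below by identifier, level and regional pattern.

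Of 15381 genes tested at 24 months, 334 (2.17%) differed between KI and WT cerebellum at an adjusted p under 0.05 (edgeR quasi-likelihood test, sex as a covariate, Benjamini-Hochberg adjustment). In KI, 185 genes rose (1.2% of those tested) and 149 fell (0.969%). The balance of rises and falls changed with the setting. A limma-trend test on log2(TPM + 1) called 191 genes that rose and 100 that fell, while edgeR called 144 and 162 without WT F2, 53 and 62 without WT M2, 25 and 35 in males alone and 11 and 16 in females alone. An unadjusted p under 0.05 in edgeR was found for 2074 genes, where 769 would fall below it if no gene differed. All 334 differences had the same sign within females and within males, in the libraries that also made the call. The number of calls changed with single animals: 115 genes were called without WT M2, 142 without WT M1, 143 without WT F1 and 306 without WT F2, and 210 to 338 without 1 KI animal, the fewest without KI M4. Of the 334 genes, 90 (43 that rose, 47 that fell) were called whichever library was left out.

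Most of the differences were small. The median rise was 0.37 on the log2 scale (quartiles 0.26 and 0.66) and the median fall was -0.34 (quartiles -0.45 and -0.26). Among genes that rose, 49 changed by less than 1.2-fold, 85 by 1.2 to 1.5-fold, 36 by 1.5 to 2-fold and 15 by 2 to 4-fold. Among genes that fell the same steps held 40, 88, 16 and 4 genes, and 1 gene fell by more than 4-fold. At the limit of the call, the last gene inside had an edgeR adjusted p of 0.05 and the first outside 0.0503.

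Genes that fell were expressed at higher levels than genes that rose. The median level per length (TPM, a unit that adjusts for transcript length and library size) over the 11 libraries was 66.1 for genes that fell, 18.7 for genes that rose and 17.7 for all genes tested. The genes tested were cut into 3 equal ranges of level. In the lowest (0.0351 to 7.87 TPM), 55 rose and 14 fell. In the middle range (7.87 to 32.9 TPM) 75 rose and 30 fell, and in the highest range (32.9 to 44600 TPM) 55 rose and 105 fell. Differences were larger where levels were lower, with a median of 0.80 for rises and -0.76 for falls (log2) in the lowest range, against 0.24 and -0.31 in the highest. Size and level are linked through the call itself, since a low gene passes the threshold only with a large difference. Genes that rose had longer effective transcripts, with a median length of 1.41 relative to the median gene, against 1.09 for genes that fell. The rank correlation of a library's deviations with effective length ran from -0.162 to 0.214 in KI (median 0.0766). In WT it ran from -0.210 to 0.101 (median -0.0828), so the genotypes overlapped but the KI median was higher. With each library's slope on length as a covariate, edgeR called 416 genes (238 rose, 178 fell), 317 of them among the 334.

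**Figure D1:**
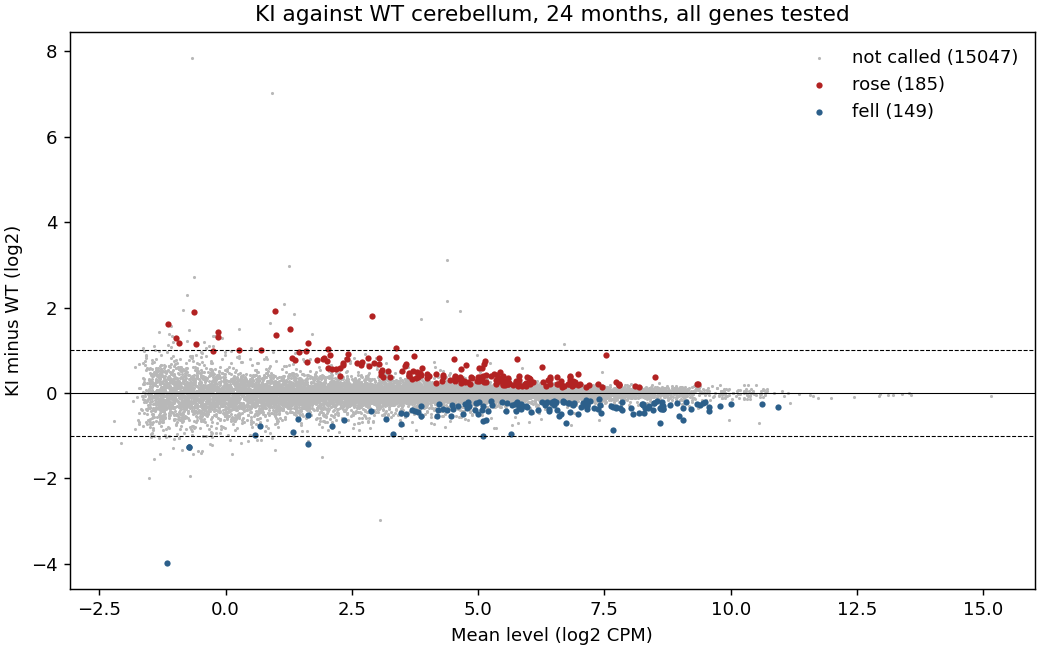
Each point is 1 of the 15381 genes tested, with the KI minus WT difference in cerebellum at 24 months (log2, vertical axis) against its mean level (log2 CPM, horizontal axis). Genes that rose are red and genes that fell are blue. Large differences lie among genes of low level, and genes that fell lie further right than genes that rose.

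The libraries themselves showed how far the genotypes were apart. For 351 genes (2.28%) all 7 KI libraries lay above all 4 WT libraries, and for 237 (1.54%) all KI libraries lay below, 588 in all (3.82%). Among the called genes, 169 of the 185 that rose (91.4%) and 115 of the 149 that fell (77.2%) had groups that did not overlap. On a scale set over all 145 libraries, all KI libraries lay above all WT libraries for 378 genes and below for 173. The shares among called genes come from the libraries that made the calls. They follow in part from the call and add no support to it. How many of the 588 genes would be apart if no gene differed was not computed.

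A set of 4 genes is described in full, those with the smallest p in each direction by a rule that asked for the same sign in females and in males and for a mean log2 CPM of 1 or more. Their levels are in CPM, counts relative to library size, scaled by TMM factors over all 145 libraries. What these genes encode is not given in the files.

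ENSRNOG00000017456 had the smallest p of all genes. Its level was 2.82 CPM in WT F1, 2.45 in WT F2, 2.38 in WT M1 and 2.56 in WT M2. The 7 KI libraries ran from 7.63 to 10.3 CPM with a median of 8.53. The groups were far apart, the lowest KI library standing well above the highest WT library. The mean was 8.96 ± 1.14 CPM (SD, n = 7) in KI and 2.55 ± 0.193 (SD, n = 4) in WT (log2 difference 1.81 ± 0.11, SE, adjusted p = 7.12e-06 in edgeR). Per length its level was 9.23 TPM in KI and 2.6 TPM in WT.

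ENSRNOG00000037658 was the other gene that rose. WT F1, F2, M1 and M2 held 96, 97.9, 88.1 and 85.5 CPM, and KI libraries 120 to 131 CPM with a median of 126. No KI library reached down to the WT range, and the KI libraries were close to each other. The means were 126 ± 3.45 CPM (SD, n = 7) in KI and 91.9 ± 5.99 (SD, n = 4) in WT (log2 difference 0.45 ± 0.04, SE, adjusted p = 5.82e-05 in edgeR).

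ENSRNOG00000034102 had the largest fall of the 4 genes. Its WT levels were 59.6, 73.1, 66.9 and 60.8 CPM in F1, F2, M1 and M2, and its KI levels ran from 29 to 39.6 CPM with a median of 33.5. Every KI library lay below every WT library. The means were 34.4 ± 3.91 CPM (SD, n = 7) in KI and 65.1 ± 6.21 (SD, n = 4) in WT. The fitted difference was -0.95 ± 0.07 on the log2 scale (SE, adjusted p = 4.77e-05 in edgeR), which puts KI at 51.8% of WT.

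ENSRNOG00000009411 was the most abundant of the 4 genes, with 628 TPM in WT and 440 TPM in KI. WT libraries held 543, 537, 598 and 586 CPM in F1, F2, M1 and M2. KI libraries ran from 346 (KI F2) to 412 CPM with a median of 396, again with no overlap. The means were 392 ± 22.3 CPM (SD, n = 7) and 566 ± 30.8 (SD, n = 4) (log2 difference -0.55 ± 0.04, SE, adjusted p = 4.77e-05 in edgeR).

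**Figure D2:**
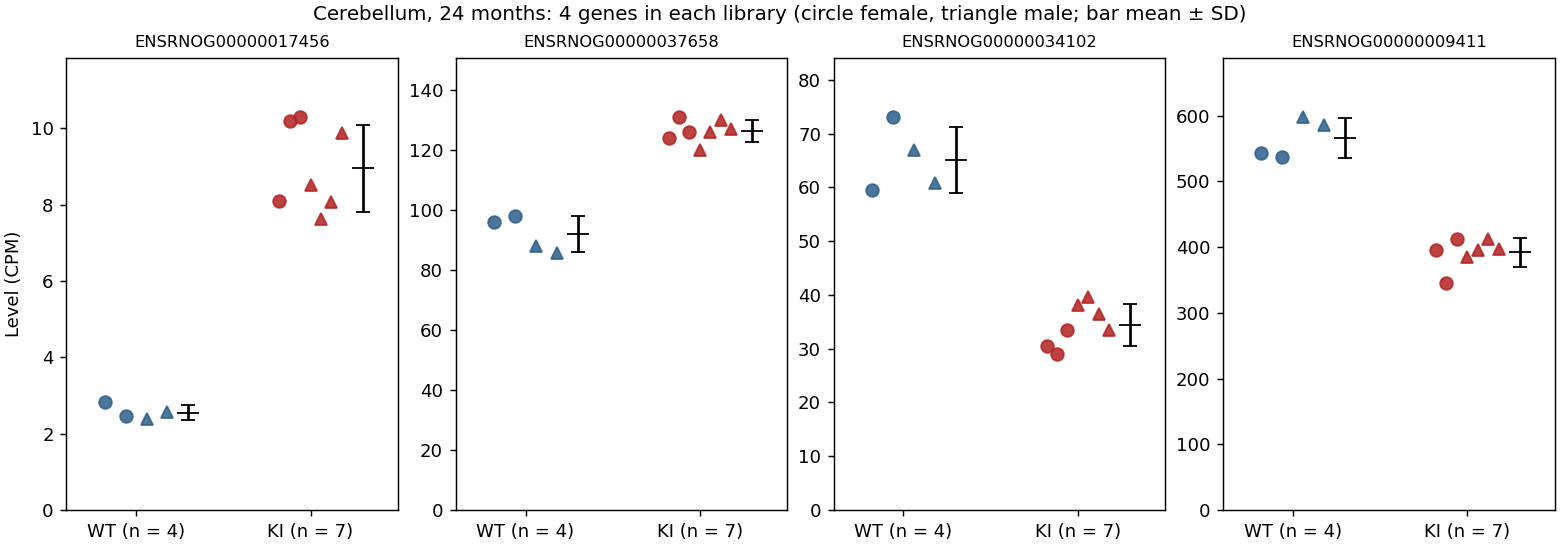
Levels of the 4 genes in each cerebellum library of 24 months (CPM, linear axis from 0), WT in blue and KI in red, circles for females and triangles for males, with bars for the mean and SD. KI and WT libraries do not overlap for any of the 4 genes.

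In all, 20 called genes differed at least 2-fold, ENSRNOG00000017456 among them, mostly at low level. A filter of 1 CPM in 4 libraries left 12 such genes, and the count was 13 without WT F1, 11 without WT M1 and 13 without WT M2. The limma-trend test on log2(TPM + 1), which shrinks differences of low genes, gave 3. The 15 that rose had a median level of 1.49 TPM (0.304 to 6.82), and the KI and WT libraries were apart for 14 of them. The 5 that fell had a median of 1.32 TPM (0.522 to 22.4), with groups apart for 4. The largest rise was 1.92 ± 0.26 on the log2 scale (SE, edgeR adjusted p = 0.00166). It went from a mean of 0.612 CPM in WT cerebellum to 2.36 CPM in KI, while WT cortex held 0.675 and WT striatum 0.0424 CPM. The largest fall, -3.99 ± 0.76 on the log2 scale (SE, edgeR adjusted p = 0.0199), was a gene near the detection floor. It held 1.28, 0.912, 0.936 and 0.357 CPM in WT F1, F2, M1 and M2, was at 0 in 5 KI libraries, and reached 0.115 in KI F2 and 0.232 in KI M3. The most abundant of the genes that fell 2-fold ran from 34.9 to 55.5 CPM in WT and from 14.9 to 30.8 CPM in KI (log2 difference -1.0 ± 0.17, SE, edgeR adjusted p = 0.0169). Its WT level was 0.131 CPM in cortex and 0.0754 in striatum, so its transcript was found mostly in cerebellum.

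Genes that fell were mostly genes of high cerebellar level, and genes that rose were more often genes of higher forebrain level. Regional levels were taken from WT libraries of 19 months, animals not used in the 24-month test. The cerebellum held the highest level for 119 of the 149 genes that fell (79.9%), for 44 of the 185 that rose (23.8%) and for 40.5% of all genes with a level. The cortex was highest for 78 genes that rose and the striatum for 63, against 23 and 7 genes that fell. The median log2 ratio of cerebellum over forebrain was 1.31 for genes that fell, -0.48 for genes that rose and 0.02 for all genes. All 5 genes that fell at least 2-fold were highest in cerebellum, and 13 of the 15 that rose at least 2-fold were highest in cortex or striatum. Genes that fell were also of higher level in cerebellum, and these shares were not matched for level.

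Set against the forebrain of the same age, most differences left a gene on the same side of the other regions. Of the genes that rose, 105 (56.8%) lay below both cortex and striatum in WT cerebellum of 24 months, against 33.4% of genes not called. In KI cerebellum 72 of these 105 were still below both, 25 lay between the regions and 8 above both. Of 5030 genes not called that lay below both in WT, 4597 were still below both in KI. Of the genes that fell, 120 (80.5%) lay above both regions in WT cerebellum, against 39.5% of genes not called. In KI cerebellum 101 of these 120 were still above both, 18 lay between and 1 lay below both. Of 5950 genes not called that lay above both in WT, 5497 were still above both in KI. These cerebellum levels come from the libraries that made the calls. The call itself thus favours low WT levels among genes that rose and high ones among genes that fell.

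Genes enriched in cerebellum were lower in KI in sum. A group of 407 genes was at least 4-fold higher in cerebellum than in both other regions in WT rats of 19 months. Their summed level was 33000, 33500, 32800 and 32800 CPM in WT F1, F2, M1 and M2, and 28200 to 29900 CPM in KI with no overlap. The KI mean of 28900 ± 683 CPM (SD, n = 7) was 87.5% of the WT mean of 33000 ± 345 (SD, n = 4). Within the group 265 genes were lower and 142 higher in KI, where 49.7% of all 15381 genes tested were higher. Of its 404 tested genes, 45 were called as fallen and 6 as risen, beside 149 (0.969%) and 185 (1.2%) of all 15381 genes tested. The share called as risen was thus near that over all genes, and only the falls stood out. Over all genes, 105 of the 149 falls were in the highest range of level, and the shares were not matched for level. Its members had a median log2 difference of -0.10, and all genes tested one of -0.00099. The drop of the 10 genes with the largest drops came to 46.6% of the net drop in the sum, and that of called genes to 56.9%. In bulk tissue, fewer cells of a type and less RNA per cell cannot be told apart. The summed level of 244 cortex-enriched genes moved the other way, at 985 to 1100 CPM in KI and 904 to 977 CPM in WT. On this scale, set over all 145 libraries, the groups were apart only by the narrow gap between KI M2 and WT M2. With factors of the 11 libraries the cerebellum-enriched sums stayed apart (30900 to 33300 CPM in KI, 36500 to 37400 in WT). The cortex-enriched sums were not compared with those factors. That of 355 striatum-enriched genes overlapped, at 874 to 971 CPM in KI and 862 to 991 CPM in WT. Of the genes in these lists, 2 cortex-enriched and 2 striatum-enriched ones were at 0 in all 11 libraries. The part of tissue makeup or dissection in the genotype differences was not tested.

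**Figure D3:**
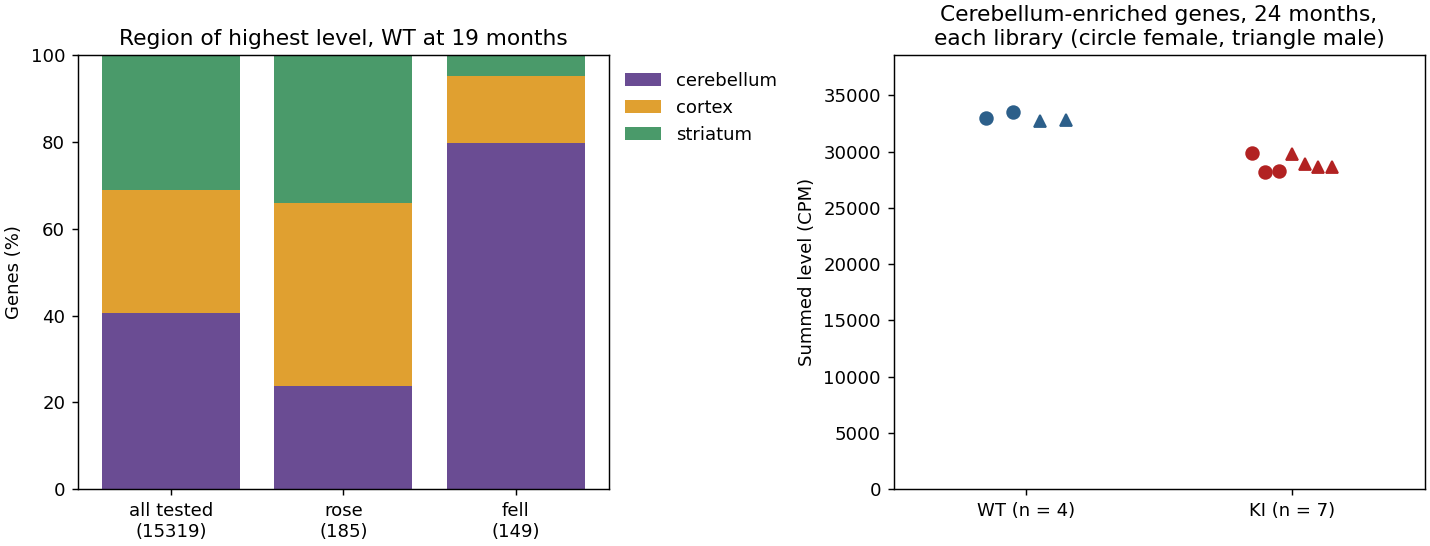
Left, the share of genes (%) whose WT level at 19 months was highest in cerebellum, cortex or striatum, for all genes tested, genes that rose and genes that fell. Right, the summed level of the 407 cerebellum-enriched genes in each library (CPM, axis from 0), where the 7 KI libraries lie below the 4 WT libraries.

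The cerebellum of 19 months gave a comparison in separate animals, whose identifiers were of another form than those of 24 months. There 352 of 15101 genes (2.33%) were called, 158 that rose (1.05%) and 194 that fell (1.28%). At 19 months, 61 of the 185 risers of 24 months were called as risen, which is 33% of the list of 24 months and 38.6% of that of 19 months. Of the 149 that fell, 78 were called as fallen at both ages, 52.3% and 40.2% of each list. No gene was called in opposite directions. Counting all genes with a test, at 19 months KI was also higher for 179 of the 184 genes that had risen at 24 months, with a median log2 difference of 0.20, and 147 of 149 that fell were lower, with a median of -0.24. Over all genes tested at 19 months, 49.7% were higher in KI. The genes were chosen by their values at 24 months, which favours large differences at that age. Their smaller medians at 19 months thus do not show a change with age.

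Read the other way, the genes called at 19 months separated the genotypes at 24 months in each library. For the 158 genes that rose at 19 months, the median deviation from the middle of the 2 genotypes at 24 months was -0.18, -0.16, -0.10 and -0.17 (log2) in WT F1, F2, M1 and M2. In KI libraries it ran from 0.10 to 0.22 with a median of 0.17. For the 194 genes that fell at 19 months it was 0.14, 0.10, 0.14 and 0.15 in WT F1, F2, M1 and M2, and -0.19 to -0.09 in KI. For both sets the KI and WT libraries thus did not overlap, while over all 15381 genes the medians stayed between -0.01 and 0.02. The middle was set with the genotype labels of these libraries. The groups therefore lie on opposite sides of it wherever they differ, and no library was placed without its label. In KI against WT at 24 months the median log2 difference was 0.32 for the first set and -0.26 for the other.

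In cortex and striatum of the same animals the libraries of the genotypes overlapped for both sets. In cortex, the median deviation of genes that rose at 19 months lay between -0.0093 and 0.055 (log2) in KI and between -0.025 and -0.0027 in WT. That of genes that fell lay between -0.045 and 0.039 in KI and between 0.0037 and 0.034 in WT. In striatum, genes that rose lay between -0.13 and 0.11 in KI and between -0.20 and 0.11 in WT, and genes that fell between -0.11 and 0.027 in KI and between 0.026 and 0.076 in WT. The overlap of genes that fell in striatum came from 1 KI library, that of the animal KI M1, in which the summed level of cortex-enriched genes was also the highest (2720 CPM, against 1040 to 1910 in the other 10). Without it, the KI libraries ran from -0.11 to -0.0017 for genes that fell, below the 4 WT libraries. It was left out because of its value, so this separation follows from the choice and is no test. Genes that rose still overlapped without it, at -0.13 to 0.061 in KI. What set this library apart was not tested.

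**Figure D4:**
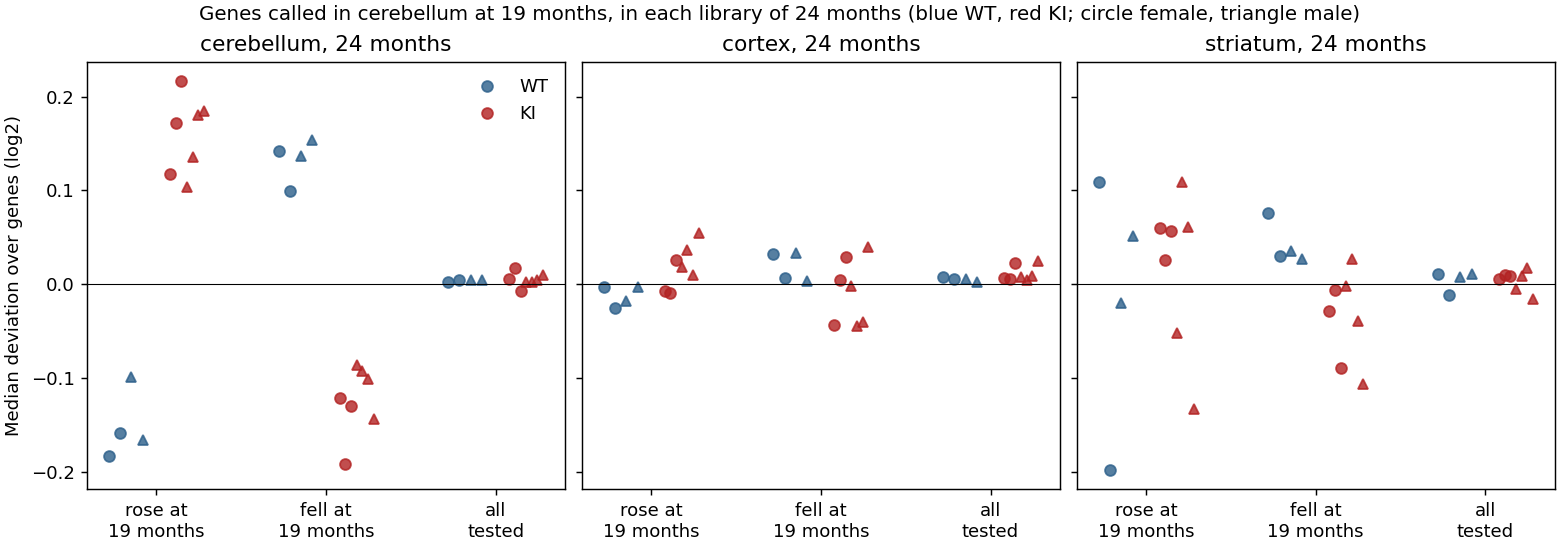
Median log2 deviation (vertical axis) of the genes that rose and fell at 19 months in KI cerebellum, in each library of 24 months, by region, WT blue and KI red, circles female and triangles male. In cerebellum the genotypes are apart for both sets, with WT at -0.18 to -0.10 and KI at 0.10 to 0.22 for genes that rose.

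A change of the genotype difference between 19 and 24 months was not found for any single gene. The test of that change called 0 of 15811 genes (0%) with edgeR and 0 with DESeq2. An unadjusted p under 0.05 was found for 521 genes with edgeR and 533 with DESeq2, where 791 would be counted if none changed. ENSRNOG00000017456 differed by 1.64 (log2) at 19 months (10 KI, 10 WT) and by 1.81 at 24 months, a change of 0.16 ± 0.20 (SE, edgeR adjusted p = 1). ENSRNOG00000037658 differed by 0.36 and 0.45, ENSRNOG00000034102 by -1.06 and -0.95, and ENSRNOG00000009411 by -0.44 and -0.55. The WT levels at 19 months were 2.47 ± 0.523, 103 ± 8.56, 70.8 ± 10.7 and 568 ± 23.3 CPM (SD, n = 10) in the same order, close to those of 24 months. A p that misses the threshold does not show that the ages act alike, and 11 animals at the older age limit what can be seen. The form of the animal identifiers also changed with age, so age and the set of animals cannot be told apart.

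Cortex and striatum of the same rats had no gene past the threshold at 24 months. In cortex 0 of 15437 genes (0%) were called, with 772 at an unadjusted p under 0.05, and in striatum 0 of 15645 (0%), with 468 (edgeR). If no gene differed, 772 would be counted in cortex and 782 in striatum. For the genes described in full, the SE of the log2 difference was larger in striatum (0.0893 to 0.251) than in cerebellum (0.0397 to 0.112). In cortex it ran from 0.0419 to 0.145. A p that misses the threshold does not show that cortex or striatum was unchanged. The genes called in cerebellum were followed there. In cortex, 76 of 184 genes that rose in cerebellum were higher in KI (median log2 -0.02) and 86 of 141 that fell were lower (median -0.04), while 52.2% of all genes were higher. In striatum, 113 of 183 were higher (median 0.07) and 91 of 144 lower (median -0.06), while 52.9% of all genes were higher. The genes that rose at least 2-fold in cerebellum had a median of -0.03 in cortex, with 7 of 15 higher, and of 0.34 in striatum, with 11 of 14 higher.

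Testing the difference between regions within the same animals gave fewer calls than the cerebellum by itself. The genotype difference in cerebellum exceeded that in cortex, or fell below it, for 36 of 16038 genes (0.224%), 29 in the upward (0.181%) and 7 in the downward direction (0.0436%). Of these, 29 had risen and 6 had fallen in cerebellum, and the median size was 0.66 (log2) in cerebellum and 0.07 in cortex. Without 1 animal the count ran from 10 (without WT M2) to 66 (without KI M1), and it fell to 22 without KI F3, 13 without KI M2, 21 without KI M4, 12 without WT F1, 16 without WT F2 and 11 without WT M1. Against striatum, 1 of 16153 genes (0.00619%) was called, ENSRNOG00000017456, and this call was lost without any 1 of 9 animals. It held without KI M1, the animal with the striatum library of high cortex-enriched level (edgeR adjusted p = 0.00988). The call also held without WT F1 (edgeR adjusted p = 0.00854), where 2 genes were called.

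The 4 genes had distinct regional patterns. ENSRNOG00000017456 was higher in WT cortex (26.1 ± 1.49 CPM, SD, n = 4) than in WT striatum (8.83 ± 1.26) and WT cerebellum (2.55 ± 0.193), so its KI cerebellar level of 8.96 lay near that of WT striatum. Its genotype difference in cerebellum exceeded that in cortex by 1.85 ± 0.12 (log2, SE, edgeR adjusted p = 3.08e-05) and that in striatum by 1.64 ± 0.19 (edgeR adjusted p = 0.0259, up to 0.223 without 1 animal). ENSRNOG00000037658 stood at 125 ± 5.85 CPM in WT cortex and 97.1 ± 15.9 in WT striatum, and its KI cerebellar level of 126 was close to that of cortex. Its difference exceeded that in cortex by 0.43 ± 0.05 (SE, edgeR adjusted p = 0.0028), and the edgeR adjusted p against striatum was 0.976.

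ENSRNOG00000034102 was low in WT cortex (7.91 ± 0.567 CPM, SD, n = 4) and spread widely in WT striatum (44.8 ± 13.2). Its KI minus WT difference in cerebellum less that in cortex was -0.87 ± 0.12 (log2, SE, edgeR adjusted p = 0.0113, and 0.0512 to 0.0644 without WT F2, WT M1 or WT M2). In striatum its KI level was 29.6 ± 8.82 CPM (SD, n = 7), -0.61 ± 0.25 on the log2 scale (SE), which did not pass (edgeR adjusted p = 0.998), and the difference between cerebellum and striatum did not pass either (edgeR adjusted p = 0.976). ENSRNOG00000009411 was mainly cerebellar, at 566 CPM in WT cerebellum, 87 ± 0.881 in WT striatum and 22.7 ± 1.63 in WT cortex. Its difference in cerebellum less that in cortex was -0.65 ± 0.10 (log2, SE, edgeR adjusted p = 0.0195). That call was lost without KI M2 or any 1 of the 4 WT animals, with edgeR adjusted p from 0.0512 to 0.101.

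**Figure D5:**
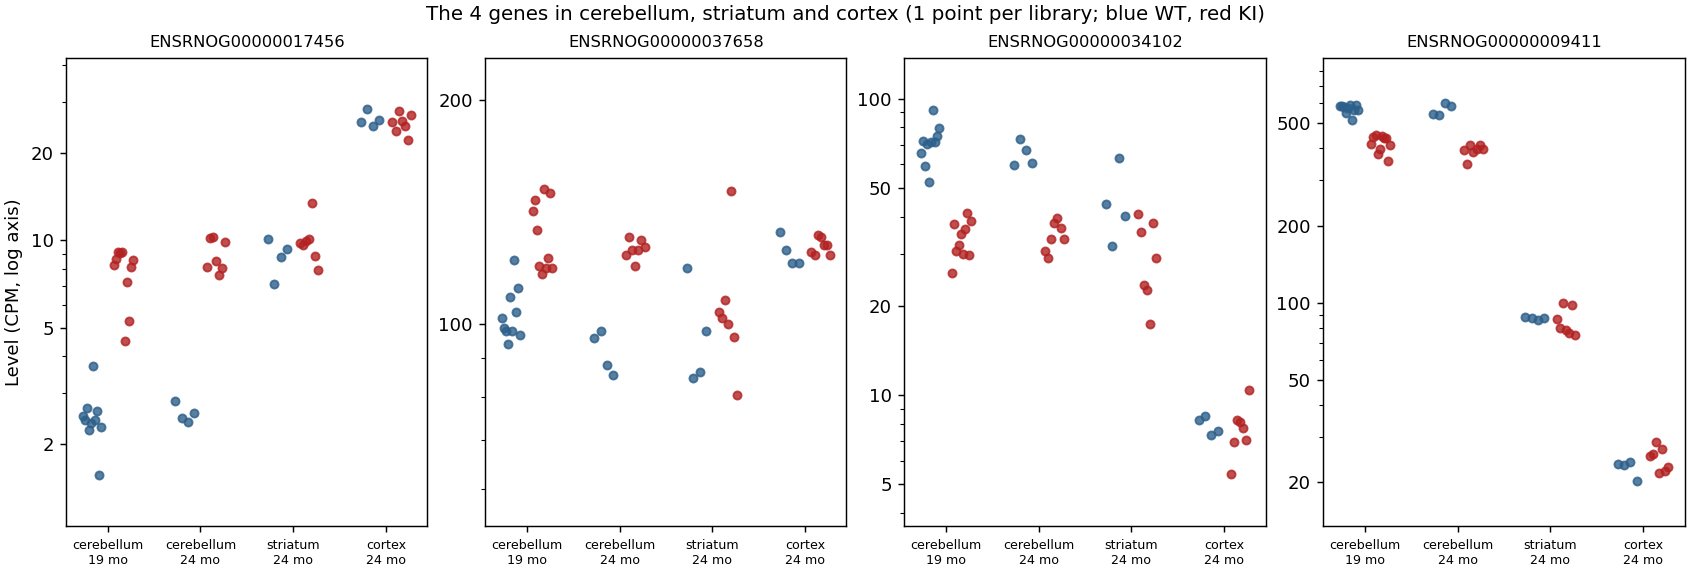
Levels of the 4 genes (CPM, log axis) in cerebellum at 19 and 24 months and in striatum and cortex at 24 months, 1 point per library, WT in blue and KI in red. In cerebellum at 24 months the genotypes are apart for all 4 genes, and in cortex they overlap for all 4.

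Each sex was also compared by itself. The test of a difference between the sexes called 0 of 15381 genes (0%) with edgeR and 9 with DESeq2, with 910 at an unadjusted p under 0.05 in edgeR where 769 would be counted if none differed. The median rise was 0.35 in females and 0.40 in males, and the median fall -0.30 and -0.35. The rise was larger in males for 115 of 185 genes and the fall for 94 of 149. These genes were called in the same libraries, which held 4 KI males and 3 KI females, so the counts do not test sex. ENSRNOG00000034102 fell by 1.10 (log2) in females and by 0.81 in males, a difference of 0.28 ± 0.13 (SE, edgeR adjusted p = 0.808). The groups held 2 WT animals of each sex, which limits this test.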

How the data were processed

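RNA was extracted from flash-frozen tissue with a Qiagen kit and made into Illumina libraries, per the labels' protocols. The deposited gene table holds estimated counts made by the authors (8.12% of values not whole), which were rounded. The deposited table that the authors named FPKM sums to 1000000 in each library, so its values were read as TPM. Per the file headers, the reference library was Rat.B6.0. Aligner, counting tool and annotation were not given in the sources used here.

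Groups came from the labels, and columns were matched by animal and region. Replicates were separate animals, and no library was a copy of another: at least 98.6% of tested genes had unequal counts in any pair. Depth is given as total counts per library.

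Genes were tested with edgeR 4.0.16 in R 4.3.3 (TMM, filterByExpr by genotype, robust quasi-likelihood F test, sex as covariate) on the 11 libraries, with calls made below an adjusted p of 0.05 (Benjamini-Hochberg, over all genes tested). Differences between ages, sexes and regions were interaction terms, with the animal as a block for regions. limma 3.58.1 and DESeq2 1.42.0 served as alternatives. The scripts were tested on simulated counts for the 11 libraries, with 200 of 15381 genes changed. There edgeR called 166 genes, 8 of them unchanged, and DESeq2 called 197, 30 of them unchanged. Of 100 genes changed 2-fold, edgeR recovered 93 and DESeq2 95. Of 100 genes changed by a smaller step, they recovered 65 and 72. Changes below that step were not simulated, so the check does not cover the smallest differences called. Levels in CPM use TMM factors over all 145 libraries, and overlap counts and deviations use factors of the libraries compared. The regional ratio was taken over log2(CPM + 0.1), and TPM levels are means over the 11 libraries.

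The rule for named genes took the 2 that rose and the 2 that fell with the smallest p among called genes whose sign was the same in females and males and whose mean log2 CPM was 1 or more. The condition on symbols was dropped, since none matched, and the 36 gene and marker lists (644 entries) were not tested for the same reason. The comparison, the rule and the lists were chosen with earlier results of these data known. No sequences were matched to these identifiers.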

Additional observations from a re-analysis of the deposited data

Results flagged for a closer look

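Of 56 groups of libraries examined, 6 held a value far from the others in its group, and chance gives about 1 in 20. In KI cerebellum at 24 months, KI F2 had the lowest level of ENSRNOG00000009411, at 346 CPM. The mean Spearman correlation of KI M3 with the other libraries, 0.989, was the lowest among the KI libraries. In cortex, the animal WT M2 had the lowest WT level of ENSRNOG00000009411, at 20.3 CPM. At 19 months, the library WT M1 had the highest WT cerebellar level of ENSRNOG00000017456, at 3.7 CPM. In striatum at 24 months, 1 KI library was highest for ENSRNOG00000017456 (13.4 CPM) and for ENSRNOG00000037658 (151 CPM). It came from the animal whose cerebellum library is KI M1, and the summed level of cortex-enriched genes in it was 2720 CPM, against 1040 to 1910 CPM in the other 10 striatum libraries. Without this animal, the test of cerebellum against striatum again called 1 gene, and the difference of differences went from 0.35 to 0.45 for ENSRNOG00000037658, from -0.31 to -0.45 for ENSRNOG00000034102 and from 1.64 to 1.72 for ENSRNOG00000017456.

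The genotype difference differed between regions for some genes, by the edgeR interaction test within animals. Cerebellum and cortex differed for 36 genes, among them ENSRNOG00000017456 (1.85, log2), ENSRNOG00000037658 (0.43), ENSRNOG00000034102 (-0.87) and ENSRNOG00000009411 (-0.65). Cerebellum and striatum differed for 1 gene, ENSRNOG00000017456, by 1.64.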

How the results depend on the processing

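All 334 called genes kept their sign wherever they were tested (325 of 325 under a filter of 1 CPM in 4 libraries). The count of called genes stayed within 1.5 times of 334 with RLE factors (328), no filter (304), the strict filter (342), no sex term (340), all cerebellum libraries in 1 fit (223), limma-trend (291, 306 and 240) and the length covariate (416). It was 666 with DESeq2, 27 in females alone and 60 in males alone. Leaving out 1 library gave 115 to 338. Of the 334 genes, edgeR called 326 again in the same direction with RLE factors, 297 with no filter and 324 with the strict filter. Without a sex term 311 were called again, and with all cerebellum libraries in 1 fit 181. The limma-trend tests called 251, 256 and 213 of them again, so a similar count could hold other genes. The replicate numbers gave no clear sign of a pairing of KI and WT animals. Correlations of deviations between same-numbered animals were -0.0146 (female 1), 0.246 (female 2), -0.0177 (male 1) and 0.0157 (male 2). For female 2 the best-matching KI library was that of the same number, KI F2, and for the other pairs it was not. Low correlations do not show that the animals were unpaired. With the number as a replicate block, 159 genes were called (70 rose, 89 fell), 129 of them among the 334.

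The count of genes that differed from cortex was 148 with DESeq2 and 10 to 66 without 1 animal. From striatum it was 25 with DESeq2 and 0 to 2 without 1 animal. Between sexes it was 9 with DESeq2 and 0 to 3 without 1 animal, and between ages 0 to 1 (1 without WT F2). Over 24 alternatives the log2 difference ran from 1.51 to 1.85 for ENSRNOG00000017456, 0.39 to 0.51 for ENSRNOG00000037658, -1.10 to -0.81 for ENSRNOG00000034102 and -0.60 to -0.49 for ENSRNOG00000009411. In females alone ENSRNOG00000037658 and ENSRNOG00000009411 missed the threshold (edgeR adjusted p = 0.0509 and 0.0599). The TMM factors over all 145 libraries for the overlap counts were an alternative added after seeing the data. Leaving out outlying libraries was not run, since none met the criterion. Where a count moved with a setting, the cause was not tested.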

Other observations

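Large differences that missed the threshold were found for 73 genes at 2-fold or more (36 higher, 37 lower in KI), and 9 of them were 4-fold or more (edgeR). The groups were apart for 2 of the 73 in the upward direction. Several had levels that split the animals within a genotype. In 1 such gene, WT F1 held 34.4 CPM and the other WT libraries 0 to 0.357. In KI the same gene was at 0 CPM in KI F2, at 0.197 CPM in KI M1 and at 29.1 to 39.4 CPM in the other 5 libraries. Another was at 181 CPM in KI F1 and at 2.06 to 3.97 CPM in the other KI libraries. One more held 5.08 CPM in KI F1, 1.91 in KI M1, 5.65 in KI M2 and 4.99 in KI M3, and at most 0.0864 CPM in the other KI libraries and 0.0314 in WT. These genes were picked out after their values were seen.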
